A study of Mus musculus with 6 samples.

Results

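The 47 genes described here are interferon-stimulated genes of the antiviral response, read out in NK cells sorted from mouse spleen. They were chosen by name, as the rows of the deposited expression tables whose gene is on a list of interferon-stimulated genes, and all 47 were found among 24343 genes. Of the 47, 41 belong to the antiviral program usually tied to type I interferon and 6 are immunity-related GTPases (IRG family) usually tied to interferon gamma; the groups are kept apart below. The sort kept cells that bear NK1.1 together with NKp46 and lack both CD3 and binding of a CD1d tetramer. They came from female C57BL/6 mice that had received cytokine complexes of IL-15 (IL-15C, 3 libraries) or of IL-2 (IL-2C, 3 libraries). In such complexes the cytokine is joined to a carrier protein that prolongs its action. All animals shared 1 strain background with no genotype change, and no untreated group was analysed here; every difference below sets IL-15C against IL-2C. The labels give no dose, time or age and do not say whether a library is 1 mouse or a pool, and the p-values therefore cover only the spread among these 6 libraries, which may be technical.

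Type I interferons bind the receptor IFNAR1/IFNAR2, and the kinases JAK1 and TYK2 then activate a complex that includes STAT2 and IRF9 and binds the interferon-stimulated response element (ISRE) in promoters. Interferon gamma binds IFNGR1/IFNGR2 and acts through JAK1 and JAK2 on promoters that hold a gamma-activated site (GAS). NK cells respond to type I interferon during viral infection and are themselves a main source of interferon gamma. The products of the genes below sense viral RNA or DNA, block translation, degrade RNA, retain budding virus or disrupt the vacuoles of intracellular parasites.

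Promoter sequences are shown because they carry the elements through which interferon reaches these genes. RefSeq promoters of build GRCm38.p6, each 250 bases before to 50 bases after a gene's start, were matched by symbol for 34 of the 47 members. The ISRE letters, GAAA, then any 2 bases, then GAAA, searched on both strands, occurred in the promoters of 18 of these 34 genes (52.9%), against 3.99% of 27025 genes with a promoter. The GAS letters TTCNNNGAA, which read the same on both strands, occurred in 9 of 34 (26.5%) against 9.55%. The Isg15 promoter (chr4:156200769-156201068, minus strand) held 3 ISRE matches that overlap each other, the first starting 78 bases before the gene's start; the matches are in capitals.
Isg15: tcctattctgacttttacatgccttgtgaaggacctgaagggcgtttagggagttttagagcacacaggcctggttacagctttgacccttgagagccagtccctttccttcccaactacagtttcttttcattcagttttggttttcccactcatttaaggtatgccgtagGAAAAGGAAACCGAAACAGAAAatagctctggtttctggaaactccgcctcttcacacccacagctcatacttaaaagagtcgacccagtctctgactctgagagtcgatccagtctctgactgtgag

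In 3 of the 5 IRG genes with a promoter sequence a GAS match was followed, after 2 bases, by an ISRE match. The printed Igtp and Irgm2 stretches are alike, while the outer bases of the Tgtp1 stretch differ from both. These stretches of 60 bases are shown with both matches in capitals beside the Oas3 stretch, an antiviral gene with an ISRE match alone. They lie at chr11:58199482-58199541 (Igtp, plus strand), chr11:58214873-58214932 (Irgm2, plus strand), chr11:48992304-48992363 (Tgtp1, minus strand) and chr5:120777710-120777769 (Oas3, minus strand).
Igtp: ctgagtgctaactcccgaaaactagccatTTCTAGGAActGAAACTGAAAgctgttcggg
Irgm2: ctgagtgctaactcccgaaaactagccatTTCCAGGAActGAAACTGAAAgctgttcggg
Tgtp1: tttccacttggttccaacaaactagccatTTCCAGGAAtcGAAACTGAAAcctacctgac
Oas3: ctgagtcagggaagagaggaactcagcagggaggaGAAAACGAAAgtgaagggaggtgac

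The longest run shared by the Irgm2 and Tgtp1 promoters was 20 bases, and it ends with the GAS match; Igtp and Irgm2 shared a run of 61 bases in another part of their promoters. A GAS match with an ISRE match after 2 bases was found in 5 of the 27025 genes with a promoter. These were Igtp, Irgm2 and Tgtp1, the Tgtp1 copy Tgtp2, and Gm12185. A match describes letters in this window and does not show binding.

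The authors' deposited intervals imply 23543141 to 27229145 fragments per library, which is not a read count. Levels are in FPKM, a fragment count divided by transcript length and by the size of the library. The summed level of 8 NK markers ran from 10586 to 11159 FPKM over the IL-15C libraries, against 10012 to 11408 over the IL-2C libraries, and was carried mostly by Gzma and Nkg7. None of the 8 passed the test. Klrk1, Eomes and Klrd1 were lower in every IL-15C library than in every IL-2C library, as were 25.1% of all tested genes. Their log2 changes were -0.18, -0.17 and -0.22 (adjusted p = 0.0591, 0.0755 and 0.0512). The groups overlapped for Ncr1 (-0.06), Klrb1c (-0.004), Nkg7 (0.03), Gzma (0.08) and Prf1 (0.10). Other cell types left smaller traces. The summed level of 8 granulocyte markers was 110.4 FPKM in IL-15C replicate 1 and 40.7 to 59.9 in the remaining 5 libraries. Of these 8, 1 was called higher in IL-15C, against 1.72% of all tested genes. It was Retnlg (0.57, adjusted p = 0.0445), and its call ended without IL-15C replicate 1 (0.46, adjusted p = 0.0552). For 8 B cell markers the summed level was 16.7, 5.05 and 8.24 in IL-15C against 16.2, 23.9 and 9.50 in IL-2C. The sum of 8 T cell markers was 87.7 in IL-15C replicate 1 and 72.9 and 64.7 in IL-15C replicates 2 and 3. In IL-2C it was 66.3 to 71.8. This sum was carried by Cd3g (30.7 to 44.6 FPKM over the 6 libraries), Cd3d (15.3 to 22.3), Cd28 (13.7 to 15.9) and Cd3e (3.40 to 5.70). Cd4, Cd8a, Cd8b1 and Cd5 were under 1 FPKM in every library. For 8 markers of monocytes and macrophages the sum was 31.2 in IL-15C replicate 1 and 17.4 to 25.5 elsewhere. Of 8 markers of dendritic cells, 6 were under 1 FPKM in every library. Siglech of plasmacytoid cells, which are the classical source of type I interferon, was among these. The others on that list were Cox6a2, at 2.43 to 3.22 FPKM over the 6 libraries, and Zbtb46, at 1.18 to 1.46. IL-15C replicate 1 also had the highest Hba-a1, the alpha globin gene of red cells, at 12.3 FPKM against 0.360 to 3.16 in the other libraries. Without that library Hba-a1 (-1.12, adjusted p = 0.0133) and the B cell marker Cd22 (-0.63, adjusted p = 0.00474) were called lower in IL-15C. The macrophage marker Cd68 was called higher (0.33, adjusted p = 0.0156). Of all tested genes, 5.85% were called lower and 1.79% higher in that fit. Lyz2, the other tested marker on the list of Cd68, had -0.09 without IL-15C replicate 1 (adjusted p = 0.71). Because this library stands apart in the granulocyte, T cell and monocyte sums, in Hba-a1 and in several members, results are given with and without it. In the B cell sum, Cd22 and Cd68 it lay within the range of the IL-2C libraries. In bulk RNA, fewer cells of a type and less RNA per cell cannot be told apart.

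Members spanned a wide range of levels, and FPKM allows genes to be compared per length. The nuclear body gene Sp100 was highest, at 155.9 to 169.7 FPKM over the 6 libraries, and its lowest library lay above the highest library of every other member. Ifi203, a DNA-binding protein gene of the IFI200 family, followed at 92.6 to 101.3 FPKM, and its libraries overlapped those of Ifi47, an IRG gene, at 87.8 to 110.1. Samd9l, a restriction factor gene that limits viral translation, came next, then Trim30a and the DNA and RNA sensor gene Zbp1. At the other end, 9 members averaged under 1 FPKM. These were Ifi44, Ifi204, Oasl2, Rsad2, Iigp1, Ifit3b, Mx2, Oas2 and Oas1g, the last at 0.020 to 0.091 FPKM. Of the 46 pairs of neighbours in the order of mean level, 33 overlapped between their libraries and 13 did not.

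**Figure D1:**
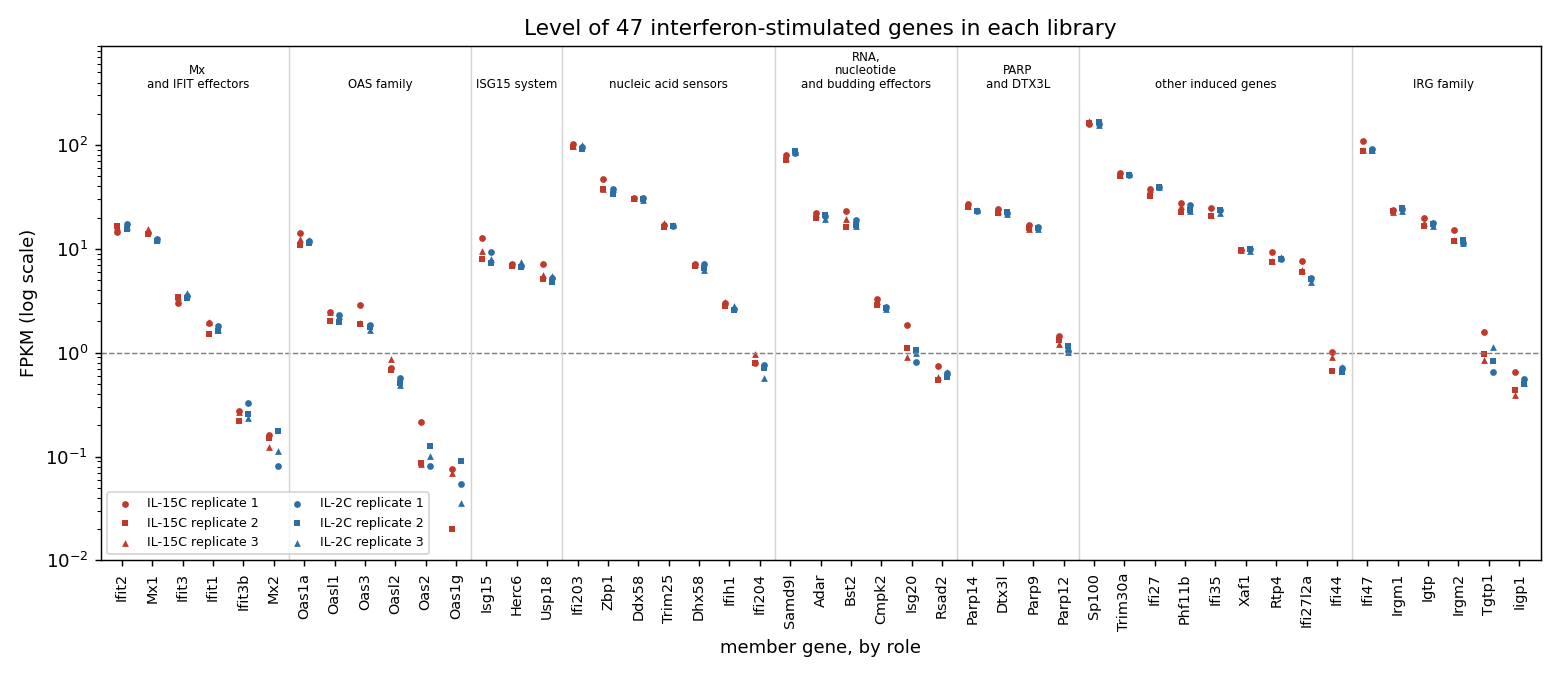
FPKM (log axis) of each of the 47 members in the 6 libraries, grouped by role; red points are IL-15C, blue points IL-2C, the marker shape gives the replicate and the dashed line is 1 FPKM. Levels run from about 0.020 FPKM for Oas1g to 169.7 for Sp100, and for most genes the red and blue points lie close together.

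Closely related families contained both well expressed and near-silent members. Within the IFIT family, whose products bind viral RNA ends or block translation, Ifit2 averaged 16.1 FPKM, Ifit3 3.43 and Ifit1 1.76. Within the OAS family, whose products make the 2-5A messenger that activates RNase L, Oas1a averaged 12.1 FPKM and Oas2 0.116. Some values, low and high, are uncertain because reads can be shared. Of the 50-base windows of the Ifit3b transcript, 44.5% also occur in Ifit3, and 54.1% of those of Oas1g occur in Oas1a. In the other direction, 51.2% of Ifit3 windows occur in Ifit3b and 57.6% of Oas1a windows in Oas1g. For Tgtp1 and Tgtp2 the share was 89.4%, for Phf11b and Phf11a 26% and for Ifi204 and Ifi211 23.2%. Counting any other gene, Phf11b shared 47% and Ifi204 30.2%.

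The comparison asked how the interferon-stimulated genes differ between NK cells of IL-15C-treated and IL-2C-treated mice. Mx1 and Ifi27l2a rose in IL-15C, and the other tested members did not pass the test. The test was limma on log2(FPKM + 1) over 9831 genes with a mean of at least 1 FPKM, with adjusted p under 0.05 as the threshold; 38 of the 47 members met the minimum. Of these 38, 2 were called higher (5.26%), against 1.72% of all tested genes. None was called lower (0 of 38), against 4.72% of all tested genes; at an unadjusted p under 0.05, 5 of 38 members were higher, against 6.48% of all tested genes, and 2 lower, against 20.4%. Over all tested genes 169 were higher and 464 lower, a split that turned to 325 and 207 when each library was scaled to a common median. Changes were small throughout. They ran from -0.17 to 0.33 on the log2(FPKM + 1) scale, and no 95% interval of a tested member reached a doubling (1 on this scale): the bound farthest from 0 was 0.55, for Isg15. The intervals are for single genes, without adjustment for their number.

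The direction of the small changes differed from that of most genes. The median change was 0.05 over the 33 tested antiviral members and 0.08 over the 5 tested IRG members, against -0.04 over all tested genes. Of the 38 members, 30 had a change above 0 (78.9%), against 35.3% of all tested genes. With each library scaled to a common median these shares were 86.8% and 50.2%. Without IL-15C replicate 1 the median was 0.02 for the antiviral members, -0.01 for the IRG members and -0.05 for all tested genes, and 24 of 38 members (63.2%) were above 0 against 30.4%. All 3 IL-15C values lay above all 3 IL-2C values for 7 of 38 members (8.15% of all tested genes) and below them for 2 (25.1% of all tested genes). The 7 were Mx1, Oas3, Zbp1, Cmpk2, Parp12, Parp14 and Ifi27l2a, and the 2 were Samd9l and Ifi27. The members share libraries and regulation, so these shares are a description and were not tested.

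**Figure D2:**
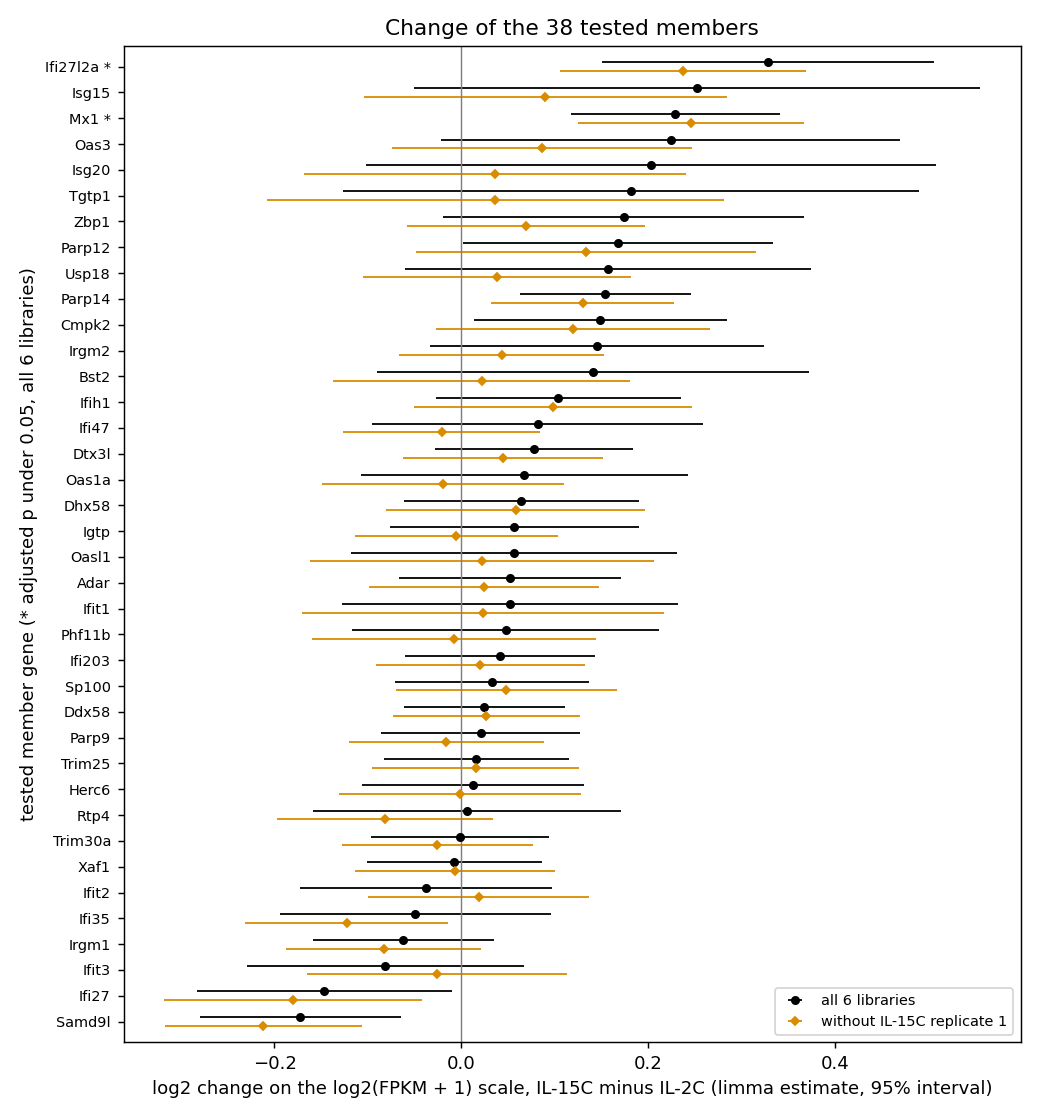
Log2 change (IL-15C minus IL-2C, on the log2(FPKM + 1) scale) of the 38 tested members with its 95% interval from limma, from all 6 libraries (black) and without IL-15C replicate 1 (orange). Changes run from -0.17 for Samd9l to 0.33 for Ifi27l2a; Isg15, Oas3, Isg20 and Tgtp1 move most towards 0 without that library, and Mx1 does not.

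Mx1 and Mx2 encode dynamin-like GTPases that trap viral nucleocapsids. C57BL/6 mice, like most laboratory strains, carry defective copies, and RefSeq lists both genes as transcribed pseudogenes in this genome. The Mx1 transcript (chromosome 16, 97447035 to 97462906) was at 14.1, 13.9 and 15.4 FPKM in IL-15C against 12.4, 11.9 and 12.4 in IL-2C. Every IL-15C library lay above every IL-2C library, with IL-15C replicate 3 highest. The means were 14.5 ± 0.833 (SD, n = 3) and 12.2 ± 0.298, and the log2 change was 0.23 ± 0.05 (SE; adjusted p = 0.0340). The call held without IL-15C replicate 1, at 0.25 (adjusted p = 0.0281), but ended without any one of the other 5 libraries and with no minimum level; over all alternatives the adjusted p ran from 0.00765 to 0.127. Mx2 was at 0.082 to 0.174 FPKM, from 7 to 21 implied fragments, and was not tested.

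None of the 3 tested IFIT genes passed the test, where 1.72% of all tested genes were called higher and 4.72% lower. Ifit2 was at 14.6, 16.7 and 16.4 FPKM in IL-15C against 17.3, 15.6 and 16.1 in IL-2C, so the groups overlapped. Ifit3 and Ifit1 had log2 changes of -0.08 ± 0.07 and 0.05 ± 0.08. Ifit2 and Ifit3 were both lowest in IL-15C replicate 1, the library in which most members were highest. Ifit3b, at 0.220 to 0.331 FPKM, was not tested.

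In the OAS family 0 of 3 tested genes passed, also at an unadjusted p under 0.05 (6.48% of all tested genes higher, 20.4% lower). Oas3 was at 2.88, 1.89 and 1.93 FPKM in IL-15C against 1.84, 1.75 and 1.65 in IL-2C. IL-15C replicate 1 stood 1.49-fold above the highest of the other 5 libraries, and the remaining IL-15C values barely cleared the IL-2C values. The log2 change was 0.22 ± 0.11 (adjusted p = 0.222), and 0.09 without that library. Oas1a was at 14.1, 10.9 and 12.3 FPKM in IL-15C against 11.8, 11.4 and 12.1 in IL-2C, with IL-15C replicate 1 highest and the groups overlapping. Its change of 0.07 turned to -0.02 without that library. Oasl1 had 0.06 ± 0.08. Oasl2, below the minimum for testing, was at 0.709, 0.682 and 0.874 FPKM against 0.570, 0.516 and 0.493, with IL-15C replicate 3 highest and no overlap between groups. Its mean was 1.43-fold higher in IL-15C and 1.48-fold without IL-15C replicate 1, but in the fit without a minimum its adjusted p was 0.11. Oasl2 was singled out after its values were seen. Oas2 was at 0.215 FPKM in IL-15C replicate 1 and 0.082 to 0.127 elsewhere.

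The ISG15 system attaches the ubiquitin-like protein ISG15 to other proteins: Herc6 encodes its ligase in mice and Usp18 the protease that removes it, which also restrains the type I interferon receptor. None of the 3 genes passed, also at an unadjusted p under 0.05 (6.48% of all tested genes higher, 20.4% lower). Isg15 was at 12.7, 8.0 and 9.56 FPKM in IL-15C against 9.24, 7.39 and 7.95 in IL-2C. IL-15C replicate 1 was 1.33-fold above every other library, while the other IL-15C values lay among or just above the IL-2C values. The log2 change was 0.25 ± 0.13 (adjusted p = 0.26), and 0.09 without that library. Usp18 was likewise highest there, at 7.10 FPKM in IL-15C replicate 1 and 4.79 to 5.56 elsewhere. Herc6 was at 6.69 to 7.43 FPKM in all 6 libraries, with IL-2C replicate 3 highest and a change of 0.01 ± 0.05.

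Among nucleic acid sensors, 0 of 6 tested genes passed, also at an unadjusted p under 0.05 (6.48% of all tested genes higher, 20.4% lower). Ddx58, which encodes the RNA sensor RIG-I, was at 29.8 to 31.1 FPKM in the 6 libraries, and its change of 0.02 had a 95% interval of -0.06 to 0.11. Dhx58 (LGP2) and Ifih1 (MDA5), its relatives, had 0.06 and 0.10. Trim25, a ubiquitin ligase gene that promotes RIG-I signalling, had 0.02 ± 0.04. All 4 had groups that overlapped. Ifi203 was at 101.3, 96.8 and 97.1 FPKM in IL-15C against 94.7, 92.6 and 99.6 in IL-2C, again with overlap. Zbp1 was at 47.6 FPKM in IL-15C replicate 1, 1.25-fold above every other library, and its change of 0.17 became 0.07 without it. Ifi204, below the minimum, was at 0.792 to 0.981 FPKM in IL-15C against 0.570 to 0.764 in IL-2C (adjusted p = 0.274 without a minimum).

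Of the effectors acting on RNA, nucleotides or budding, none of 5 tested passed; at an unadjusted p under 0.05, 1 was higher (Cmpk2) and 1 lower (Samd9l), where 6.48% and 20.4% of all tested genes were. Samd9l was the member with the largest negative change. It was at 80.2, 72.2 and 75.5 FPKM in IL-15C against 84.4, 86.7 and 85.9 in IL-2C, every IL-15C library below every IL-2C library. The log2 change was -0.17 ± 0.05 (adjusted p = 0.0608), and without IL-15C replicate 1 it was -0.21 and passed (adjusted p = 0.0287), which made 1 of 38 members lower and 2 higher there, against 5.85% and 1.79% of all tested genes. Isg20, an exonuclease gene for single-stranded RNA, was at 1.84, 1.10 and 0.918 FPKM in IL-15C against 0.815, 1.06 and 1.00 in IL-2C. The value of IL-15C replicate 1 was 1.67-fold above every other library, the largest such gap among the tested members, and rests on 78 implied fragments. Isg20's change was 0.20 with and 0.04 without that library. Bst2, whose product tetherin holds virions at the cell surface, was at 23.0 FPKM in IL-15C replicate 1 and 16.3 to 19.3 elsewhere. Adar, the RNA-editing enzyme gene, had 0.05 ± 0.05. Cmpk2, a nucleotide kinase gene, had 0.15 ± 0.06 (adjusted p = 0.153). Its neighbour Rsad2, the gene of viperin, was at 0.546 to 0.745 FPKM with a ratio of group means of 1.00.

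Parp9 and Dtx3l encode partners in 1 ADP-ribosylation and ubiquitin ligase complex, and Parp14 and Parp12 encode further ADP-ribosyltransferases. None of the 4 passed; at an unadjusted p under 0.05, Parp14 and Parp12 were higher, as were 6.48% of all tested genes. Parp14 was at 27.0, 25.4 and 25.8 FPKM in IL-15C against 23.3, 23.2 and 23.6 in IL-2C, without overlap and with narrow spread in both groups. The log2 change was 0.15 ± 0.04 (adjusted p = 0.0545) and 0.13 without IL-15C replicate 1. It passed the test after median scaling (0.20, adjusted p = 0.0226) and quantile normalization (0.18, adjusted p = 0.0325), with a minimum of 5 FPKM and with array weights. Parp12 had 0.17 ± 0.07, Dtx3l 0.08 ± 0.05 and Parp9 0.02 ± 0.05. The loci of Parp9 and Dtx3l overlap in the deposited tables.

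Of the remaining antiviral genes, 1 of 8 tested was called higher and none lower, against 1.72% and 4.72% of all tested genes. Ifi27l2a, which encodes a small membrane protein of the ISG12 family, was at 7.63, 6.01 and 6.28 FPKM in IL-15C against 5.30, 5.13 and 4.76 in IL-2C. The groups did not overlap, and IL-15C replicate 1 was highest. The means were 6.64 ± 0.868 (SD, n = 3) and 5.06 ± 0.276, and the log2 change was 0.33 ± 0.08 (adjusted p = 0.0432). It was 0.24 without that library (adjusted p = 0.0419). The call ended without any one of the other 5 libraries, with no minimum level and without limma's intensity trend, and over all alternatives the adjusted p ran from 0.0164 to 0.130. The gene has few implied fragments, 66 to 94 per library. Its deposited interval (chromosome 12, 103433873 to 103443680) contains that of its relative Ifi27 (103434189 to 103440245). Ifi27 itself lay on the other side, at 37.6, 32.3 and 37.9 FPKM in IL-15C against 39.8, 39.8 and 39.6 in IL-2C, with a change of -0.15 ± 0.06 (adjusted p = 0.16). Strand handling is not stated in the labels, so reads of the pair may not be fully separated.

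Sp100 was at 160.5, 161.7 and 169.7 FPKM in IL-15C against 159.5, 165.4 and 155.9 in IL-2C, with overlap and a change of 0.03 ± 0.05. Trim30a, a TRIM family gene that restrains inflammatory signalling, Xaf1, a proapoptotic gene, and the chaperone gene Rtp4 had changes within 0.01 of 0. Ifi35 and Phf11b had -0.05 ± 0.06 and 0.05 ± 0.07. Ifi44 was below the minimum, at 0.646 to 1.03 FPKM with IL-15C replicate 1 highest.

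**Figure D3:**
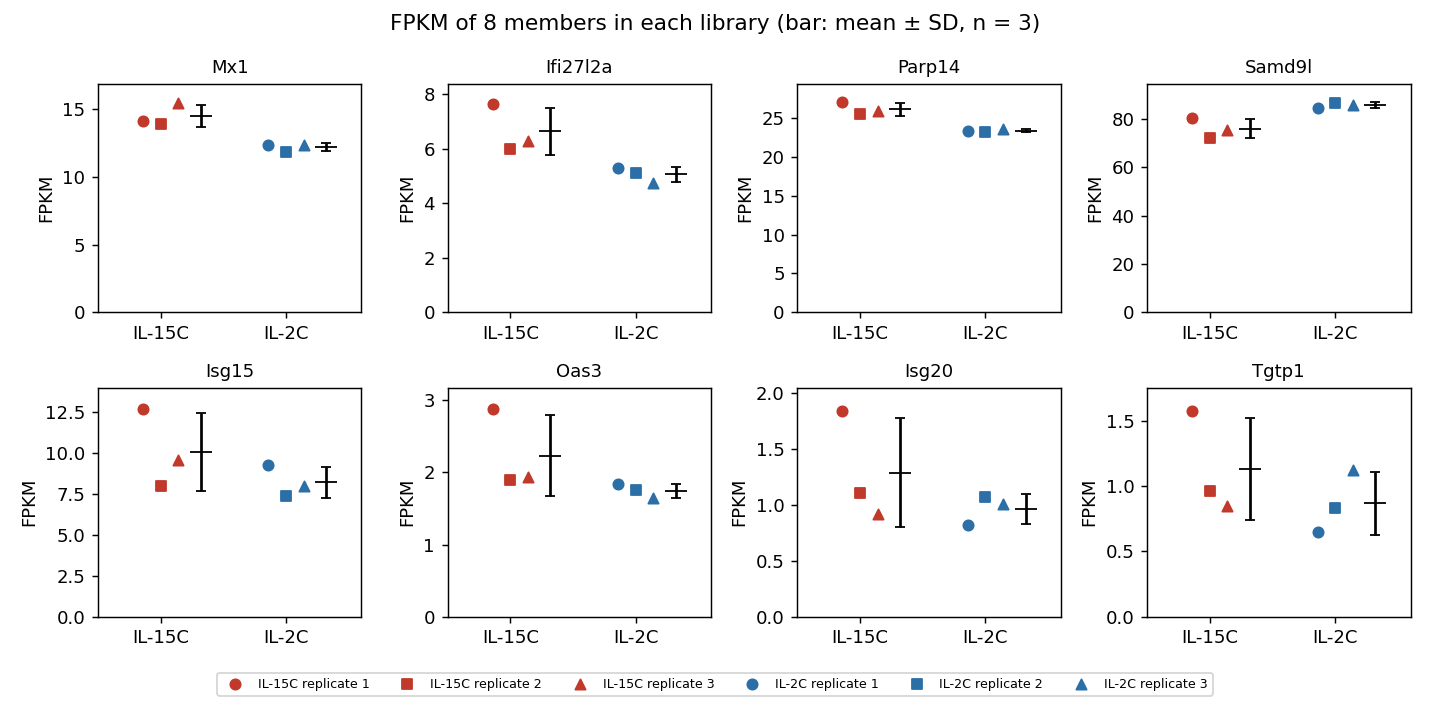
FPKM of 8 members in each library, with the replicate given by the marker shape and the group mean ± SD (n = 3) beside the points; each axis starts at 0. In Mx1, Ifi27l2a, Parp14 and Samd9l the groups are apart whether or not IL-15C replicate 1 is counted. In Isg15, Isg20 and Tgtp1 IL-15C replicate 1 alone is high and the groups overlap. Oas3 is also high there, and its remaining IL-15C values barely clear the IL-2C values.

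IRG GTPases are loaded by interferon gamma signalling onto vacuoles that hold bacteria or parasites. Irgm1 and Irgm2 are among those that keep other family members inactive on the cell's own membranes. Of 5 tested, 0 passed in either direction, also at an unadjusted p under 0.05 (6.48% of all tested genes higher, 20.4% lower). Ifi47 was at 110.1, 88.2 and 89.3 FPKM in IL-15C against 92.1, 87.8 and 90.3 in IL-2C. IL-15C replicate 1 alone was high, and the change of 0.08 ± 0.08 became -0.02 without it. Irgm2 had the same arrangement, at 15.2 FPKM in that library and 11.5 to 12.3 in the other 5, and Igtp was at 19.7 against 16.7 to 17.6. Tgtp1 was at 1.58, 0.966 and 0.849 FPKM in IL-15C against 0.651, 0.831 and 1.13 in IL-2C, and is uncertain because of its near-identical copy. Irgm1 differed from these: it was at 22.6 to 23.8 FPKM in IL-15C against 23.4 to 25.0 in IL-2C, highest in IL-2C replicate 2, with a change of -0.06 ± 0.04. Iigp1 was at 0.395 to 0.652 FPKM and was not tested. No IRG gene had groups that did not overlap, where 8.15% of all tested genes lay above and 25.1% below without overlap.

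Across the members, IL-15C replicate 1 stood apart from the other libraries. It was the highest of the 6 libraries for 24 of 38 tested members (63.2%), against 25.0% of all tested genes, and IL-15C replicate 2 was highest for 0. The median deviation from the mean of the 6 libraries, in log2(FPKM + 1), was 0.08 in that library over the antiviral members and 0.25 over the IRG members, against 0.006 over all tested genes. In the other 5 libraries it lay between -0.05 and 0.03 for antiviral members and between -0.05 and -0.009 for IRG members. IL-15C replicate 1 exceeded every other library by at least 1.2-fold for 8 of 38 members (21.1%) against 2.5% of all tested genes. The 8 were Isg15, Usp18, Oas3, Zbp1, Isg20, Ifi27l2a, Irgm2 and Tgtp1. Of these 8, 5 had a promoter sequence. All 5 held an ISRE or a GAS match, against 14 of 24 other tested members with a promoter. For ISRE alone the counts were 4 of 5 and 11 of 24. Ifi47, just under the cut at 1.195-fold, held neither match. The 8 were picked by these same values, and the difference in matches was not tested. The excess in IL-15C replicate 1 was not shared by all tested members. Ddx58, Trim25, Sp100, Xaf1, Mx1, Ifit2 and Ifit3 were not highest in that library. Neither were Ifit1, Herc6, Ifih1, Dhx58, Samd9l, Ifi27 and Irgm1. Sums of the granulocyte, T cell, and monocyte and macrophage markers were also highest in that library, as was Hba-a1. The B cell sum was not, being higher in IL-2C replicate 2. The part of these transcripts in the excess was not tested.

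**Figure D4:**
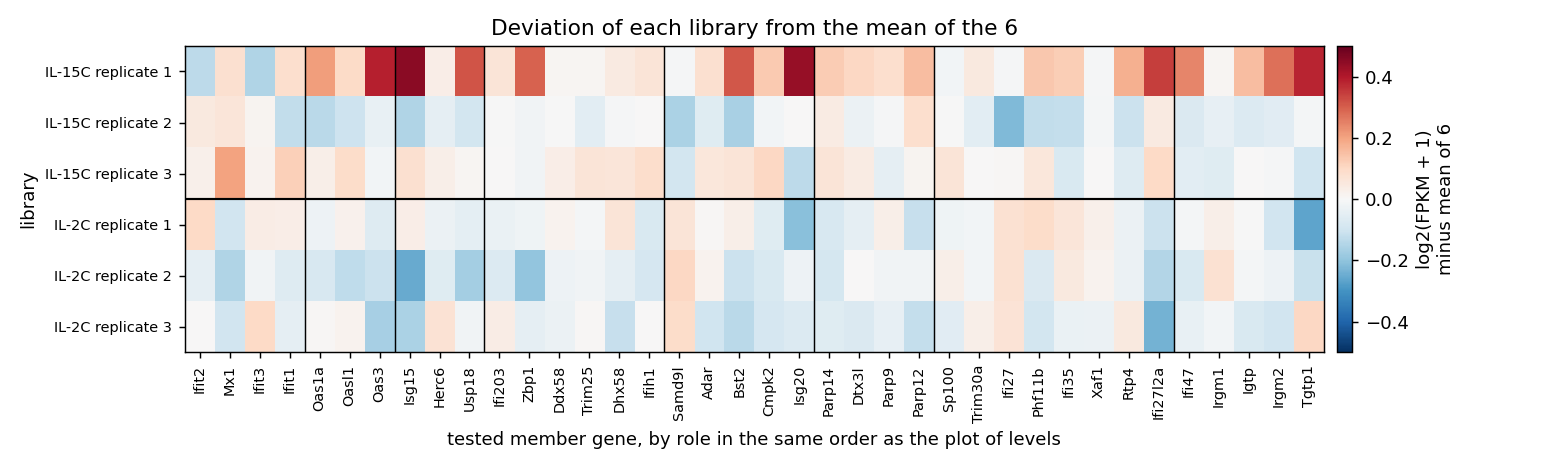
Deviation of each library (rows) from the mean of the 6 libraries in log2(FPKM + 1) for the 38 tested members (columns, by role); red is above and blue below that mean. The top row, IL-15C replicate 1, is red for most genes, most strongly Isg15, Isg20, Oas3 and Tgtp1, while Ifit2 and Ifit3 are blue there.

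**Figure D5:**
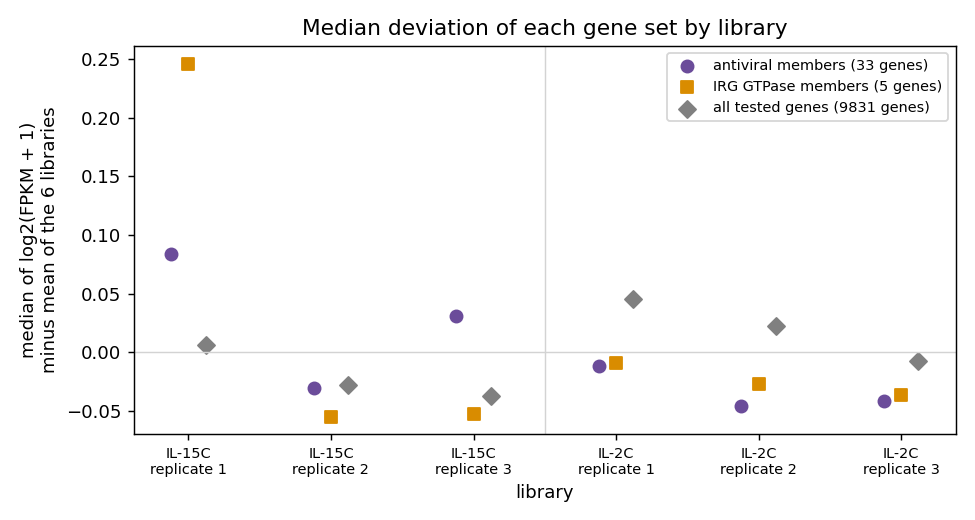
Median deviation from the mean of the 6 libraries in log2(FPKM + 1), by library, for the antiviral members (circles), the IRG members (squares) and all tested genes (diamonds). IL-15C replicate 1 is at 0.25 for the IRG members and 0.08 for the antiviral members, and the remaining libraries lie between -0.05 and 0.05.

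Of 23 other genes of the interferon pathway, 19 met the minimum and 16 of these did not pass. Called higher was 1 (5.26%, against 1.72% of all tested genes) and lower 2 (10.5%, against 4.72%). Without IL-15C replicate 1 the counts were 1 and 1, against 1.79% and 5.85% of all tested genes. Ifng, the gene of interferon gamma itself, rose, from 29.3, 33.5 and 33.2 FPKM in IL-2C to 44.0, 38.7 and 41.3 in IL-15C, a change of 0.36 ± 0.06 (adjusted p = 0.0197). The call ended when IL-2C replicate 1 was left out (adjusted p = 0.0677), when IL-2C replicate 2 was (0.0674) and with no minimum level (0.0787). Transcripts of type I interferon were at the limit: Ifnb1 and Ifna4 were listed at 0 in every library and Ifna2 in 5 of 6.

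The receptor chain gene Ifnar2 fell. It was at 27.9, 27.4 and 27.5 FPKM in IL-15C against 32.04, 32.3 and 32.1 in IL-2C, with narrow spread and no overlap, with a change of -0.21 ± 0.04 (adjusted p = 0.0191). Its partner Ifnar1 had 0.07 ± 0.04 (adjusted p = 0.312). Ptpn2, a phosphatase gene that removes phosphate from JAK kinases, fell by 0.16 ± 0.04 (adjusted p = 0.0479). It lost its call in 12 of 16 alternatives: without any one library, with each of the 3 scalings, without the trend, with a replicate block and with no minimum level. The Ifnar2 call held without IL-15C replicate 1 or IL-2C replicate 3 and ended without any one of the other 4 libraries and, narrowly, with no minimum level (adjusted p = 0.0503).

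The factor genes Stat2, Irf9 and Irf7, which act in the type I pathway, did not pass. Stat2, Irf9 and Irf7 had 0.009 ± 0.05, 0.03 ± 0.06 and 0.004 ± 0.06. Their groups overlapped. Socs1, a feedback inhibitor of JAK kinases and itself an interferon gamma target, was at 11.7 FPKM in IL-15C replicate 1 and 6.44 to 7.43 elsewhere, with a change of 0.31 ± 0.14 (adjusted p = 0.202) and 0.10 without that library. Socs3 was at 5.87, 4.67 and 4.70 FPKM in IL-15C against 3.83, 4.15 and 3.76 in IL-2C, without overlap. Its change was 0.30 ± 0.08 (adjusted p = 0.0540), and 0.21 without IL-15C replicate 1 (adjusted p = 0.0592). It passed only after median scaling (adjusted p = 0.0349), quantile normalization (0.0334) and with array weights (0.0374). Socs1 and Socs3 were named after their values were seen.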

How the data were processed

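The submitters' processing notes name the mm10 genome, Cufflinks 2.2.1 and TopHat2 2.0.13, with their annotation not given in the sources used here. Each library has its own table, in which the authors deposited FPKM and interval bounds, per the file headers. Their separate table of group values was not used here. Groups and replicate numbers came from the titles.

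For 280 genes with several rows the rows were added up, and 10 genes with a failed estimate were left out. Reading each deposited interval as the estimate plus or minus 2 Poisson SD gave implied fragments, which are not read counts. Jak1, at 342.9 to 432.8 FPKM, implied 2282 to 2301 per library, and Ifnar1, at 27.8 to 30.0 FPKM, implied 7546 to 9588. Only 29.4% to 31.3% of low rows per library were within 0.02 of a whole number, so no count model was fitted. limma 3.58.1 (R 4.3.3) with an intensity trend was fitted to log2(FPKM + 1), two-sided, for 9831 genes with a mean of at least 1 FPKM, and p-values were adjusted by Benjamini-Hochberg over all of them. This scale understates changes of low genes. The script was tested on simulated data.

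Values in every library are given for members that passed, members without overlap and a change of at least 0.3, the most abundant member of each role and the 3 with the widest IL-15C range; pathway genes that passed and Stat2, Irf7, Irf9 and Ifng were named too, and 1 further gene of that rule is not reported here. Others were named after their values were seen. Members and lists were chosen with earlier results of these data known. Alternatives were pseudocounts of 0.1 and 5, other minimums, 3 scalings, no trend, array weights, a replicate block and leaving out each library. The libraries' log values correlated at r = 0.990 to 0.997 across genes, and no pair was identical. Positions are 1-based on mm10. Python 3.11.15 was used for tables and plots.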

Additional observations from a re-analysis of the deposited data

How the results depend on the processing

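Of 16 alternatives, the split over all tested genes moved most. Against 169 higher and 464 lower genes, the fit with no filter gave 6 and 9, median scaling 325 and 207, common-sum scaling 204 and 326, quantile normalization 307 and 269, and array weights 440 and 1667; leaving out 1 library gave 14 to 176 and 15 to 575. Members called higher were 2, and were 0 with no filter, 1 without the trend, 3 with a minimum of 5 FPKM, median scaling, quantile normalization or array weights, and 0 to 2 leaving out 1 library. Members called lower were 0, and were 1 with array weights and 0 to 1 leaving out 1 library. Pathway genes called higher were 1, and were 0 with no filter, 2 after median scaling, quantile normalization or array weights, and 0 to 1 leaving out 1 library. Those called lower were 2, and were 0 with no filter, 1 after median scaling, common-sum scaling or without the trend, 4 with array weights, and 0 to 1 leaving out 1 library. The cause was not tested. The antiviral median of 0.05 ran from 0.0235 to 0.112 and the IRG median of 0.08 from -0.01 to 0.14 leaving out 1 library.

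Changes near 0 turned sign in 14 refits of named genes. Ifit2 was at 0.00522 after median scaling, 0.00197 after quantile normalization and 0.0355 with array weights, and between -0.0713 and 0.0187 leaving out 1 library. With array weights Irf9 was at -0.0167 and Irf7 at -0.0521. Leaving out 1 library gave -0.0199 to 0.152 for Oas1a, -0.0211 to 0.138 for Ifi47, -0.0289 to 0.0345 for Stat2, -0.017 to 0.0922 for Irf9 and -0.0478 to 0.0493 for Irf7. None of these passed the test under any alternative.

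Same-numbered libraries did not deviate together (r = -0.03, -0.16 and -0.02 across genes), so the numbers were not taken as pairs. With a replicate block 171 genes were higher and 346 lower, among them 2 and 0 members, and 1 pathway gene was higher and 1 lower. Members under 1 FPKM rest on 1 to 138 implied fragments per library, which limits the differences that can be seen among them.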
